A study of Drosophila melanogaster with 16 samples.

Results

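The cytochrome P450 genes of Drosophila melanogaster were followed in whole larvae given a high-sugar diet for up to 16 h. The members were the 68 rows, of 10128 genes in the deposited table, whose symbol begins with Cyp followed by a digit. By the form of their symbols 67 of them are P450s, and the other is Cyp1, a cyclophilin (a peptidyl-prolyl isomerase) that shares the letters and not the enzyme family. Cyp1 was left out of all counts. By the number after Cyp, 32 P450s belong to the CYP3 clan, 24 to the CYP4 clan, 8 to the mitochondrial clan and 3 to the CYP2 clan. The reference annotation (Ensembl, BDGP6.54) lists 85 genes with such symbols, of which 18 were not analysed here, and P450s that go by another name (phm, sad, shd and spok of the ecdysone pathway) are given apart.

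All larvae were labelled wild type and were raised for 24 h at 25 °C on a low-sugar diet (LSD, 10% yeast). As early second instars they were moved to a high-sugar diet (HSD, 10% yeast and 15% sucrose) and collected after 4 h (n = 3), 8 h (n = 3) or 16 h (n = 4), or were moved to fresh LSD and collected after 8 h (n = 4). All foods after the move held a blue dye. Only the comparison at 8 h is matched in time, and at 4 and 16 h diet and the age of the larvae cannot be told apart. Between times within HSD, time on sugar and larval age cannot be told apart either. The labels list 16 libraries and mark 2, replicate 2 at 4 h and replicate 1 at 8 h of HSD, as outliers taken out by the submitters, and both were left aside. The labels do not say whether replicates came from separate egg lays, so p-values measure only the spread between these libraries. Reads recovered from the values and summed over all genes listed came to between 16300308 and 25284073 per library. Values are normalised read counts, that is, reads per gene divided by an effective library size set by the authors.

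P450s are heme enzymes that take electrons from NADPH and insert oxygen into fats, hormones and foreign compounds. In insects the CYP3 clan holds many detoxifying enzymes, among them the CYP6 and CYP9 families, which are used mostly in the midgut, the Malpighian tubules (the insect kidney) and the fat body. The CYP4 clan holds fatty acid hydroxylases and the enzyme that makes cuticular hydrocarbons. The CYP2 and mitochondrial clans hold the enzymes that make and break down the molting hormone ecdysone, next to others with detoxifying roles.

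Averaged over the 4 groups, 4 P450s had a normalised read count of at least 100, 40 lay between 10 and 100, and 23 were below 10. Per kilobase of exon, Cyp4g1 had the highest level (113), followed by Cyp28d2 (65.9), Cyp4p2 (64.2), Cyp9b2 (61.5) and Cyp6a2 (53.2). Cyp4g1 is the decarbonylase of the oenocytes that makes cuticular hydrocarbons. The group with the lowest mean was LSD for 38 of the 67 genes, whereas the highest mean was in HSD at 8 h for 21 genes, HSD at 16 h for 21, HSD at 4 h for 15 and LSD for 10. The median ratio of a gene's highest to its lowest group mean was 1.95. All 67 P450s passed the filter on low values (1 or more in at least 3 libraries). Exons of 21 P450s overlap another gene, and no source used here states whether reads were counted by strand, so their values are uncertain.

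**Figure D1:**
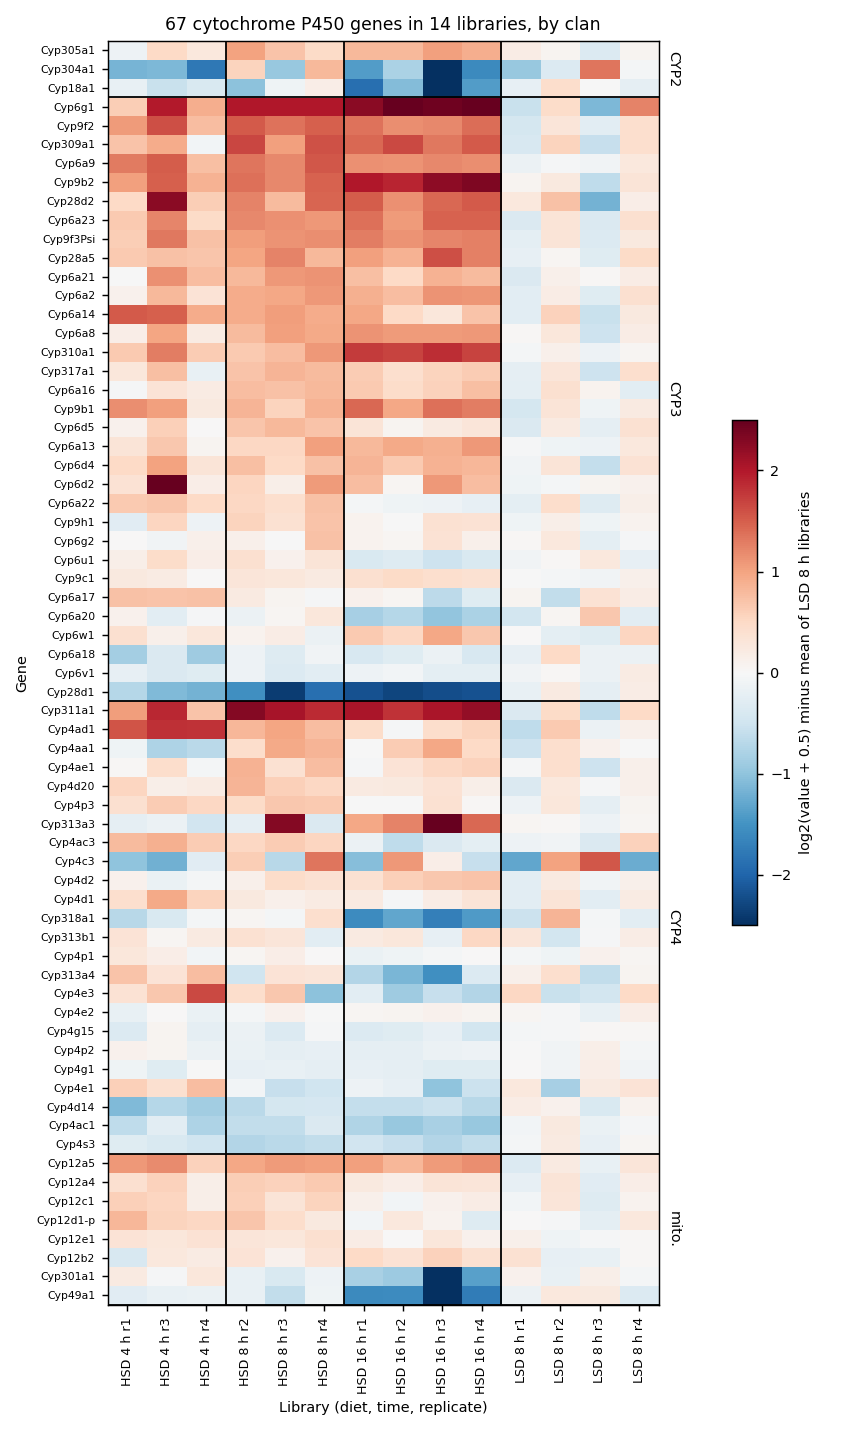
Log2(value + 0.5) of each of 67 P450 genes (rows, by clan and then by their difference at 8 h) in each of 14 libraries (columns), minus the gene's mean over the 4 LSD libraries; red is higher and blue lower than LSD, and the scale ends at 2.5 in each direction. Most CYP3 rows are red in all HSD groups, Cyp28d1 at the foot of that block is blue, and Cyp18a1, Cyp318a1, Cyp301a1 and Cyp49a1 are blue mainly at 16 h.

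At the matched time of 8 h, P450 genes were mostly higher on sugar. With limma, 35 of the 67 rose (52.2%) and 6 fell (8.96%) at an adjusted p under 0.05, against 17.5% of all genes called higher and 16.9% called lower (34.4% in either direction). Their median log2 difference was 0.54, against -0.01 over all 10114 genes tested. At least a 2-fold difference was called higher in 11 and lower in 1, but the share of all genes at that size was not taken. The HSD and LSD libraries did not overlap in 33 P450s that were higher and 6 that were lower, where 19.4% and 18.4% of all genes did so.

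The CYP3 clan held most of the rises at 8 h: 22 of its 32 genes rose, 2 fell, and the median log2 difference was 0.76. In the CYP4 clan 7 of 24 rose and 4 fell (median 0.14), in the mitochondrial clan 5 of 8 rose and 0 fell (median 0.39), and in the CYP2 clan 1 of 3 rose. By family, all 6 CYP9 genes, 12 of 20 CYP6 genes and 5 of 6 CYP12 genes rose. Under every alternative at the same threshold, 3 of these CYP9, 9 of these CYP6 and 3 of these CYP12 genes were called higher. The call for Cyp9h1 (log2 0.54) was lost in 7 alternatives (adjusted p 0.0501 to 0.116), among them quantile normalization and leaving out HSD 8 h replicate 2 or 4 or LSD replicate 1 or 3. That for Cyp9b1 (log2 0.75) was lost in 4 (0.0582 to 0.0712), among them leaving out HSD 8 h replicate 2 or 4 or LSD replicate 1. The difference between clans was not tested.

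**Figure D2:**
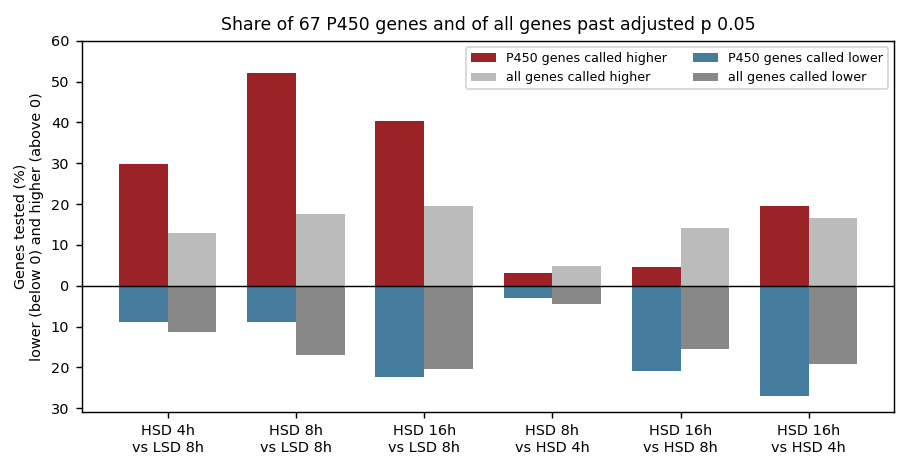
Share (%) of the 67 P450 genes (coloured bars) and of all 10114 genes tested (grey bars) called higher (above 0) or lower (below 0) in each of 6 comparisons, at an adjusted p under 0.05 in limma. At 8 h 52.2% of P450s were higher on HSD against 17.5% of all genes, while at 16 h against 8 h of HSD 4.48% were higher and 20.9% lower.

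Among the CYP9 genes, Cyp9b2 had the widest response. It was at 81.6, 113 and 73.4 in the HSD 4 h libraries, 104, 92.6 and 112 at 8 h, 163, 150.4, 189 and 203 at 16 h, and 42.3, 47.2, 25.5 and 50.4 in LSD. Every HSD library was above every LSD library, and the 16 h libraries were above all others. The log2 difference from LSD was 1.12 ± 0.21 (SE) at 4 h, 1.35 ± 0.21 at 8 h and 2.12 ± 0.20 at 16 h (adjusted p = 0.00204, 0.000468 and 7.89e-06), the last a 4.33-fold difference. Within HSD, 16 h against 8 h was called (log2 0.77, adjusted p = 0.0181) and lost without HSD 8 h replicate 2 (0.0504) or replicate 3 (0.0646).

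Cyp9f2 stood at 68.1, 99.2 and 55.2 in HSD 4 h larvae, 94.0, 82.5 and 91.2 at 8 h, 83.5, 72.9, 74.1 and 84.9 at 16 h, and 23.4, 39.7, 26.5 and 42.9 in LSD. Its differences from LSD were 1.15, 1.46 and 1.28 (log2) at 4, 8 and 16 h (adjusted p = 0.00178, 0.000289 and 0.000333). No step within HSD was called, which does not show that its level was the same at each time. Its neighbour Cyp9f3Psi, named as a pseudogene in the table and listed as protein coding in the reference, moved by 0.88, 1.11 and 1.22. The ratio of Cyp9f2 to Cyp9f3Psi was 5.05 to 6.80 in HSD 4 h, 5.64 to 6.85 in HSD 8 h, 4.74 to 5.33 in HSD 16 h and 4.37 to 5.58 in LSD, so it varied little next to the change of each gene. Cyp9c1 was higher by a small and even step, at 63.9 to 68.2 in HSD 8 h and 72.0 to 76.5 in HSD 16 h against 51.7 to 60.1 in LSD (log2 0.27 and 0.42). The 8 h call was lost without LSD replicates 2 and 3 and HSD 16 h replicate 2 together (adjusted p = 0.0814), the 3 libraries that, in LSD and HSD 16 h, had the cuticle gene TwdlJ above 10. They are called here the 3 TwdlJ-high libraries. The name does not extend to the sum of the 14 cuticle and molting genes, which was lowest of all libraries in HSD 16 h replicate 2 (907), and all HSD 8 h libraries also had TwdlJ above 10. Cyp9c1 and Cyp9h1 lie outside the rule for named genes and were chosen after their values were seen.

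In the CYP6 family the largest rise was in Cyp6g1, known for DDT and other insecticide resistance when overexpressed. Its values were 8.85, 23.4 and 10.9 in HSD 4 h, 23.6, 23.8 and 23.7 in HSD 8 h, 28.3, 38.8, 32.0 and 35.2 in HSD 16 h, and 3.59, 7.84, 2.28 and 13.7 in LSD. The LSD libraries spread over a wide range and the 8 h libraries were almost alike. Cyp6g1 was 4.00-fold higher at 8 h (log2 2.00 ± 0.46 SE, adjusted p = 0.0051) and 5.59-fold higher at 16 h (2.48 ± 0.42, adjusted p = 0.000651), and was not called at 4 h (1.17, adjusted p = 0.0847), where only replicate 3 lay above all LSD libraries. Its exon overlaps that of Cyp6g2 on the other strand by the reference. Cyp6g2, active in the gland that makes juvenile hormone, was at 2.22 to 4.85 in all libraries and was called in no comparison.

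Cyp6a2, also linked to DDT resistance, was at 107, 109.8 and 118 in HSD 8 h and 104, 95.8, 123 and 121 in HSD 16 h, against 46.2, 63.8, 45.1 and 73.6 in LSD. The groups did not overlap, and the differences were 0.99 ± 0.19 at 8 h and 0.97 ± 0.17 at 16 h (log2, SE; adjusted p = 0.00155 and 0.000844). At 4 h it was at 60.3, 98.6 and 70.8 and was not called (adjusted p = 0.129). Cyp6a8, an inducible enzyme that hydroxylates lauric acid, was at 35.2 to 42.0 in HSD 8 h and 42.6 to 44.6 in HSD 16 h against 13.9 to 24.9 in LSD, and rose by 0.92 and 1.08.

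Cyp6a9 and Cyp6a14 rose early. Cyp6a9 was at 13.5, 15.7 and 9.07 in HSD 4 h, 13.8, 12.4 and 16.2 in HSD 8 h, 11.9, 11.9, 12.6 and 12.1 in HSD 16 h, and 4.65, 5.02, 4.82 and 6.30 in LSD. No HSD library lay within the LSD range, and the log2 differences were 1.19, 1.36 and 1.16 at 4, 8 and 16 h (adjusted p = 0.000128, 5.08e-05 and 6.74e-05). Its exons overlap Cyp6a19 on the other strand. Cyp6a14 was highest at 4 h, at 20.4, 19.6 and 13.1, and stood at 13.2, 14.4 and 13.2 at 8 h, 13.5, 9.67, 8.24 and 11.2 at 16 h, and 5.51, 10.2, 4.34 and 7.93 in LSD (log2 1.32 at 4 h, adjusted p = 0.00193). The call for Cyp6a14 at 16 h (log2 0.62, adjusted p = 0.0494) was lost in 17 of the alternatives, among them edgeR (adjusted p = 0.0639).

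Against LSD, Cyp6a17 and Cyp6a22 were called higher only before 16 h, and Cyp6a20 was called only at 16 h, as lower. Cyp6a17, which acts in the temperature preference of adult flies, was at 99.2, 97.3 and 99.0 in HSD 4 h, 68.9, 62.3 and 57.7 in HSD 8 h, 63.7, 61.6, 37.2 and 47.7 in HSD 16 h, and 62.4, 38.5, 76.2 and 66.99 in LSD. It was called higher at 4 h (log2 0.73 ± 0.22 SE, adjusted p = 0.0266), a call lost without any of the 3 HSD 4 h libraries (adjusted p 0.0637 to 0.0743), and was lower at 16 h than at 4 h within HSD (log2 -0.93, adjusted p = 0.00514). Cyp6a22 rose at 4 and 8 h (log2 0.61 and 0.55, the 8 h call lost without HSD 8 h replicate 4, adjusted p = 0.0717) and was lower at 16 h than at 8 h (-0.67, adjusted p = 0.00738); it was at 8.53 to 9.94 in HSD 4 h, 8.08 to 10.1 in HSD 8 h, 5.08 to 5.68 in HSD 16 h and 4.61 to 8.19 in LSD. Cyp6a20, known from male aggression, was not called at 4 or 8 h. At 16 h it fell to 7.92, 8.58, 6.96 and 8.11, against 10.3, 14.9, 23.3 and 11.9 in LSD (log2 -0.83, adjusted p = 0.00582).

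Cyp6a23 was at 20.3, 30.2 and 17.8 in HSD 4 h, 29.7, 28.3 and 27.2 in HSD 8 h, 33.4, 26.8, 35.7 and 35.9 in HSD 16 h, and 9.69, 15.9, 9.75 and 16.8 in LSD, so that its groups did not overlap with LSD (log2 0.79, 1.14 and 1.34). Its call at 4 h was lost without HSD 4 h replicate 3 (adjusted p = 0.088) and without LSD replicate 1 (0.0506). Cyp6d5 was at 82.3, 89.6 and 82.8 in HSD 8 h against 39.2, 59.0, 43.0 and 65.7 in LSD (log2 0.74, adjusted p = 0.00594), and its 16 h libraries, at 53.2 to 63.3, lay in the LSD range. Cyp6w1 was at 10.8 to 14.8 in HSD 16 h against 5.93 to 10.96 in LSD (log2 0.70, adjusted p = 0.00525), a call lost without the 3 TwdlJ-high libraries (adjusted p = 0.0572).

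Outside the CYP6 and CYP9 families, CYP3-clan genes differed in their values by time. Cyp310a1 was at 8.90, 14.2 and 8.83 in HSD 4 h, 8.95, 9.72 and 12.3 in HSD 8 h, 19.6, 18.9, 21.2 and 18.8 in HSD 16 h, and 5.27, 6.08, 5.03 and 5.69 in LSD. The groups formed 3 levels that did not overlap: the early HSD groups were above LSD (log2 0.86 at 4 h and 0.84 at 8 h), and the 16 h group was above both (1.74 ± 0.14 SE against LSD, adjusted p = 2.23e-06; 0.90 against HSD 8 h, adjusted p = 0.00114). Cyp309a1 was at 35.7, 22.6 and 33.7 in HSD 8 h and 30.3, 35.3, 27.8 and 32.4 in HSD 16 h, against 8.09, 16.2, 7.15 and 14.7 in LSD (log2 1.43 and 1.49). Cyp28a5 was higher by 0.69, 1.01 and 1.19 at 4, 8 and 16 h (log2). Its call at 4 h was lost without HSD 4 h replicate 1 (adjusted p = 0.0522) or replicate 3 (0.0635), LSD replicate 1 (0.0576) or the 3 TwdlJ-high libraries (0.0958).

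**Figure D3:**
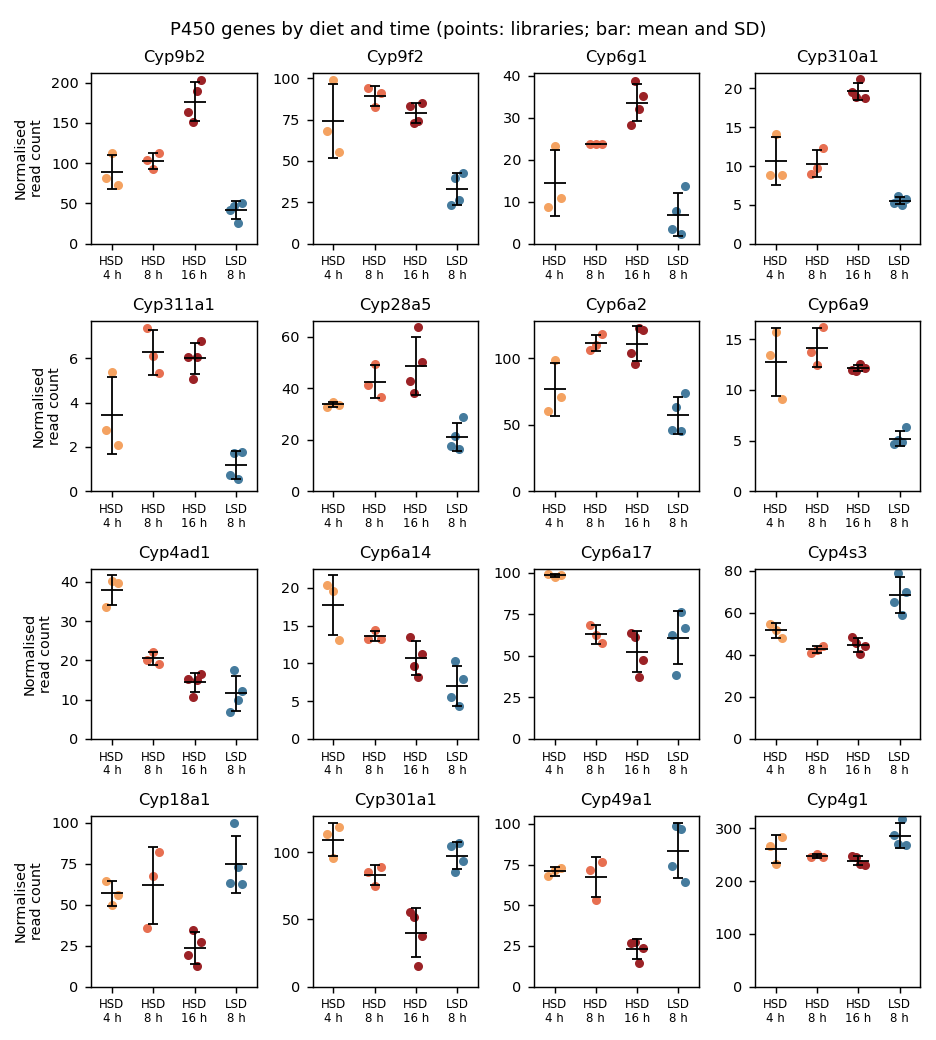
Normalised read counts of 16 P450 genes in each library (points) with the mean and SD of the group (bar), for HSD at 4, 8 and 16 h (n = 3, 3 and 4) and LSD at 8 h (n = 4); every axis starts at 0. Cyp9b2 and Cyp310a1 are highest at 16 h, and Cyp9f2 is above LSD at each time. Cyp4ad1 and Cyp6a17 peak at 4 h, and Cyp18a1, Cyp301a1 and Cyp49a1 are low at 16 h.

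The CYP4 clan moved in both directions. Cyp4ad1 was at 33.5, 40.3 and 39.8 in HSD 4 h, 20.02, 22.2 and 19.1 in HSD 8 h, 15.2, 10.8, 15.1 and 16.5 in HSD 16 h, and 6.88, 17.5, 9.91 and 12.1 in LSD. The 3 libraries of 4 h were above all others, at 3.33-fold over LSD (log2 1.73 ± 0.24 SE, adjusted p = 0.000164), the 8 h libraries were still 1.82-fold higher (adjusted p = 0.0131), and those of 16 h overlapped LSD (log2 0.36, adjusted p = 0.213). Within HSD it was lower at 16 h than at 4 h (log2 -1.38, adjusted p = 0.000754).

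Cyp311a1, which in larvae acts in the anterior midgut, was at 2.78, 5.38 and 2.103 in HSD 4 h, 7.34, 6.11 and 5.32 in HSD 8 h, 6.06, 5.07, 6.05 and 6.79 in HSD 16 h, and 0.742, 1.71, 0.530 and 1.76 in LSD. It was low in LSD and its HSD libraries lay above them at each time, 4.22-fold at 8 h (adjusted p = 0.000281) and 4.07-fold at 16 h (adjusted p = 0.000149). The call at 4 h (2.32-fold) was lost without HSD 4 h replicate 3 (adjusted p = 0.0591).

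Lower on sugar at every time, within this clan, were Cyp4s3, Cyp4d14 and Cyp4ac1. Cyp4s3 was at 54.9, 51.8 and 48.1 in HSD 4 h, 40.7, 42.4 and 44.4 in HSD 8 h, 48.4, 45.5, 40.5 and 44.1 in HSD 16 h, and 65.2, 79.1, 58.8 and 69.8 in LSD. No library overlapped, and the fall was 0.39, 0.67 and 0.60 on the log2 scale at 4, 8 and 16 h (adjusted p = 0.00792, 0.000192 and 0.000176). Cyp4d14 was at 2.73 to 3.73, 3.84 to 4.70 and 3.81 to 4.28 at the same times against 4.82 to 7.38 in LSD; its call at 8 h (adjusted p = 0.0121) was lost without HSD 8 h replicate 2 (0.0603). Exons of Cyp4s3 and Cyp4d14 overlap other genes (Rab3-GEF and ND-B14.5A) on the other strand.

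Cyp4g1, the most abundant P450, moved little. It was at 266, 232 and 284 in HSD 4 h, 247, 252 and 246 in HSD 8 h, 248, 245, 232 and 231 in HSD 16 h, and 288, 269.9, 319 and 269 in LSD. It was called only at 16 h (log2 -0.26, adjusted p = 0.011), and not with quantile normalization (0.215) or without the 3 TwdlJ-high libraries (0.0634). Cyp4e2 lay between 69.4 and 88.9 in all libraries and Cyp4p1 between 31.1 and 42.2, and neither was called in any comparison. Cyp4e3, linked to permethrin tolerance, was called only within HSD, lower at 16 h than at 4 h (log2 -1.51, adjusted p = 0.0167), a call lost without HSD 4 h replicate 4 (0.0845).

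In the mitochondrial clan, Cyp12a5 rose at every time. It was at 21.9, 23.3 and 15.3 in HSD 4 h, 20.2, 21.7 and 21.0 in HSD 8 h, 21.1, 18.3, 21.4 and 23.1 in HSD 16 h, and 7.81, 11.9, 8.79 and 12.5 in LSD, with log2 differences of 0.95, 1.02 and 1.02. Its neighbour Cyp12a4, tied to lufenuron resistance, rose less, to 77.1 to 81.4 in HSD 8 h against 42.1 to 64.9 in LSD (log2 0.62, adjusted p = 0.00417), and was not called at 4 or 16 h. Cyp12d1-p, an inducible gene of insecticide metabolism, was higher at 4 h (4.27 to 5.40 against 2.28 to 3.45 in LSD; log2 0.64, lost without HSD 4 h replicate 1, adjusted p = 0.0598, or the 3 TwdlJ-high libraries, 0.0724) and at 8 h (log2 0.46), where the call was lost in 14 alternatives. Its near-identical copy was not analysed here, so its reads may have been split.

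Cyp4d2 was at 12.2, 14.3, 15.2 and 15.5 in HSD 16 h against 7.66, 10.9, 8.69 and 10.2 in LSD (log2 0.59, adjusted p = 0.00186). Cyp4d1 was at 49.2, 71.3 and 54.5 in HSD 4 h against 30.5, 46.2, 30.8 and 42.7 in LSD (log2 0.64, adjusted p = 0.0112), a call lost without HSD 4 h replicate 3 (0.0601). Cyp12e1 was at 31.5 to 32.9 in HSD 4 h and 31.3 to 33.8 in HSD 8 h against 23.7 to 27.9 in LSD, a log2 difference of 0.33 and 0.32. Cyp4g15, which is expressed in the central nervous system, was at 16.6 to 19.8 in HSD 16 h against 22.3 to 23.7 in LSD (log2 -0.33, adjusted p = 0.0121), a call lost without the 3 TwdlJ-high libraries (0.0852). Cyp305a1 of the CYP2 clan was at 16.0, 12.9 and 10.9 in HSD 8 h and 13.8, 13.9, 16.2 and 14.8 in HSD 16 h against 8.79, 8.09, 5.99 and 8.12 in LSD (log2 0.74 and 0.89; adjusted p = 0.00452 and 0.000687). Cyp4d1, Cyp6d5, Cyp12e1 and Cyp305a1 lie outside the rule for named genes and were chosen after their values were seen. In none of the 6 comparisons were Cyp313b1, Cyp4c3, Cyp4e2, Cyp4p1, Cyp6d2 and Cyp6g2 called, which makes 6 of the 67.

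At 16 h 15 of the 67 P450s (22.4%) were called lower than in LSD, near the 20.4% of all genes. They came from all clans. Cyp49a1 was at 67.9, 71.9 and 73.0 in HSD 4 h, 71.9, 53.5 and 76.5 in HSD 8 h, 27.02, 27.2, 14.2 and 23.9 in HSD 16 h, and 73.8, 98.5, 97.1 and 64.4 in LSD. All 16 h libraries were far below all others (log2 against LSD -1.85 ± 0.20 SE, adjusted p = 2.51e-05; against HSD 8 h -1.55, adjusted p = 0.000464), and no call was made at 4 or 8 h. Cyp301a1, which acts in forming the adult cuticle, was at 114, 95.6 and 119 in HSD 4 h, 85.7, 74.8 and 89.1 in HSD 8 h, 55.2, 51.9, 15.3 and 37.8 in HSD 16 h, and 104, 85.1, 107 and 93.8 in LSD (log2 -1.42 at 16 h, adjusted p = 0.00282). It overlaps Ak6 on the other strand.

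Cyp18a1 of the CYP2 clan, which inactivates the molting hormone, was at 64.8, 49.8 and 56.0 in HSD 4 h, 35.6, 67.8 and 82.0 in HSD 8 h, 19.5, 34.6, 12.6 and 27.5 in HSD 16 h, and 63.4, 99.8, 73.2 and 62.5 in LSD. The 16 h libraries were the lowest, 0.30 of LSD (log2 -1.71 ± 0.31 SE, adjusted p = 0.000852) and 0.38 of HSD 8 h (log2 -1.39, adjusted p = 0.00842), and at 8 h the HSD libraries spread across the LSD range. Cyp318a1 of the CYP4 clan was at 1.14 to 1.69 in HSD 16 h against 3.20 to 9.14 in LSD (log2 -1.50, adjusted p = 0.000571). In the same 16 h libraries the summed level of the 14 cuticle and molting genes was 907 to 1336, against 3707 to 6164 in LSD, with 8 of the 14 lower and 3 higher. TwdlF was the largest part of the LSD sum, at 2025 to 3913 in LSD and 187 to 617 in HSD 16 h. The part of the molt cycle in these falls was not tested. In whole larvae, fewer cells of a type and less RNA per cell cannot be told apart.

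Across the family, 16 h against LSD gave 27 rises (40.3%) and 15 falls (22.4%), where 19.4% of all genes were called higher and 20.4% lower. The clans took different shares: 21 of 32 CYP3 genes rose and 3 fell (median log2 0.71), 3 of 24 CYP4 genes rose and 8 fell (median -0.08), 2 of 8 mitochondrial genes rose and 2 fell, and 1 of 3 CYP2 genes rose and 2 fell. At least 2-fold differences were called higher in 15 and lower in 6, again without the share of all genes at that size. The earlier comparison, 4 h against LSD, gave 20 rises and 6 falls, with 12.8% of all genes called higher and 11.4% lower. Of these, 11 rises and 3 falls were in CYP3, 5 and 3 in CYP4, and 4 and 0 in the mitochondrial clan. The 3 comparisons share the LSD libraries.

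Within HSD few P450s differed between 8 and 4 h, with 2 called higher and 2 lower (background 4.71% and 4.5%, or 9.21% in either direction). Cyp4aa1 was higher at 8 h (6.31, 9.17 and 8.61) than at 4 h (4.17, 2.44 and 2.64; log2 1.26, adjusted p = 0.0171), and so was Cyp6a16 (6.31, 6.11 and 6.47 against 3.39, 4.56 and 4.09; log2 0.60, lost in 8 alternatives). Cyp28d1 and Cyp4ad1 were lower. Each of these 4 calls was lost without at least 1 library. Cyp4aa1 was lost without HSD 4 h replicate 4 (adjusted p = 0.0637), HSD 8 h replicate 3 (0.0644) or replicate 4 (0.0549), and Cyp28d1 without HSD 4 h replicate 1 (0.0564). The call for Cyp4ad1 was lost on leaving out any single library of HSD 4 h or 8 h (0.091 to 0.138). It was also lost with median-of-ratios scaling (0.0531). Without HSD 4 h replicate 3 the count was 10, of which 9 were higher. The split under median-of-ratios scaling was 2 higher and 1 lower, and under quantile normalization 2 higher and 4 lower.

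At 16 h against 8 h, 3 P450s rose and 14 fell, against a background of 14.1% and 15.4%, or 29.5% in either direction (5 and 11 with quantile normalization). The rises were Cyp9b2, Cyp310a1 and Cyp6w1, the last lost without HSD 8 h replicate 4 (adjusted p = 0.0718). Among the falls, spread over the clans as 4 in CYP3, 4 in CYP4, 4 in the mitochondrial clan and 2 in CYP2, were Cyp6u1 (27.1, 28.1, 24.4 and 27.03 at 16 h against 46.6, 38.1 and 44.4 at 8 h; log2 -0.68, adjusted p = 0.00117) and Cyp4ac3. The count was 11 without HSD 8 h replicate 2 and 11 without HSD 8 h replicate 4. At 16 h against 4 h, 13 rose and 18 fell, with 16.6% and 19.2% of all genes called.

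Neighbouring genes did not always move alike. By gene bodies within 10 kb of each other on the reference, 33 P450s fell into 12 groups. Cyp28d1 and Cyp28d2, both tied to nicotine resistance, lie at 5207267 to 5212445 of arm 2L (BDGP6.54). Cyp28d1 was at 51.7, 39.2 and 37.0 in HSD 4 h, 28.7, 15.9 and 22.4 in HSD 8 h, 18.3, 16.8, 17.9 and 18.4 in HSD 16 h, and 74.3, 99.2, 72.2 and 95.6 in LSD. It fell at each time, to 0.50, 0.26 and 0.22 of LSD at 4, 8 and 16 h (log2 -0.99, -1.93 and -2.21; adjusted p = 0.00141, 1.2e-05 and 1.36e-06), the deepest called fall of the family at each time, and no HSD library reached the LSD range. Its exons overlap CG7742 on the other strand.

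Cyp28d2 went the other way. It was at 72.0, 244 and 78.0 in HSD 4 h, 121, 88.4 and 140.5 in HSD 8 h, 146, 114, 139 and 148 in HSD 16 h, and 61.3, 85.5, 22.3 and 57.6 in LSD. It rose at 16 h (2.65-fold, log2 1.40 ± 0.42 SE, adjusted p = 0.0179), a call lost without the 3 TwdlJ-high libraries (0.0544). At 8 h all HSD libraries were above LSD, and the difference of 1.16 was not called (adjusted p = 0.0639). It was called with array weights (0.0469), without HSD 4 h replicate 3 (0.024) or without LSD replicate 2 (0.0308), and in no other alternative. LSD replicate 2 held the highest LSD value, and HSD 4 h replicate 3 is in neither group of this comparison. The ratio of Cyp28d2 to Cyp28d1 was 1.39, 6.22 and 2.11 in HSD 4 h, 4.21 to 6.26 in HSD 8 h, 6.77 to 8.04 in HSD 16 h, and 0.309 to 0.861 in LSD. In every HSD library the pair thus had the opposite order to LSD.

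Cyp4ac1 and Cyp4ac3 (2L, 5264001 to 5270329) were called in opposite directions at 4 and 8 h, but kept their order. The ratio of Cyp4ac3 to Cyp4ac1 was 0.378 to 0.854 in HSD and 0.243 to 0.478 in LSD. Cyp4ac1 was at 19.9, 26.1 and 17.96 in HSD 4 h, 20.2, 20.2 and 24.3 in HSD 8 h, 18.4, 16.0, 17.5 and 15.8 in HSD 16 h, and 29.9, 37.2, 27.8 and 30.6 in LSD, and fell by 0.56, 0.53 and 0.87 on the log2 scale. Cyp4ac3 was at 17.0, 18.2 and 15.2 in HSD 4 h, 13.9, 15.2 and 14.2 in HSD 8 h, 8.66, 6.04, 7.37 and 8.02 in HSD 16 h, and 8.79, 9.04, 7.36 and 14.7 in LSD. It was higher at 4 h (log2 0.77, adjusted p = 0.00835) and 8 h (0.56, adjusted p = 0.0312, a call lost in 9 alternatives, including without each HSD 8 h library) and overlapped LSD at 16 h. The 4 h call was lost with only the groups compared (0.051) and without the 3 TwdlJ-high libraries (0.0586). On the X, Cyp311a1 and Cyp318a1 (12029754 to 12035283) had a ratio of 3.0 to 5.32 in HSD 16 h against 0.112 to 0.439 in LSD, the first being higher and the second lower at that time.

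Other groups had most calls in one direction against LSD. The group of 8 CYP3-clan genes over 31.7 kb of arm 2R, from Cyp6a22 to Cyp317a1, had 6 called higher and 0 lower at 8 h, 4 and 0 at 4 h, and 5 and 1 (Cyp6a20) at 16 h. The pairs of Cyp9b1 with Cyp9b2 and Cyp9f2 with Cyp9f3Psi were called higher at each time. The call for Cyp9b1 at 4 h (log2 0.81) was lost in 5 alternatives, among them leaving out HSD 4 h replicate 1 (adjusted p = 0.0988) or replicate 3 (0.0823) or LSD replicate 1 (0.0551). In the CYP4P group the calls differed in direction. Cyp4p3 rose at 4 and 8 h (log2 0.51 and 0.60, the call at 4 h lost without HSD 4 h replicate 3, adjusted p = 0.0532) beside Cyp4p1, which was not called, and Cyp4p2, which was called lower at 8 and 16 h by 0.20 and 0.18, calls lost in 16 and 17 alternatives.

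**Figure D4:**
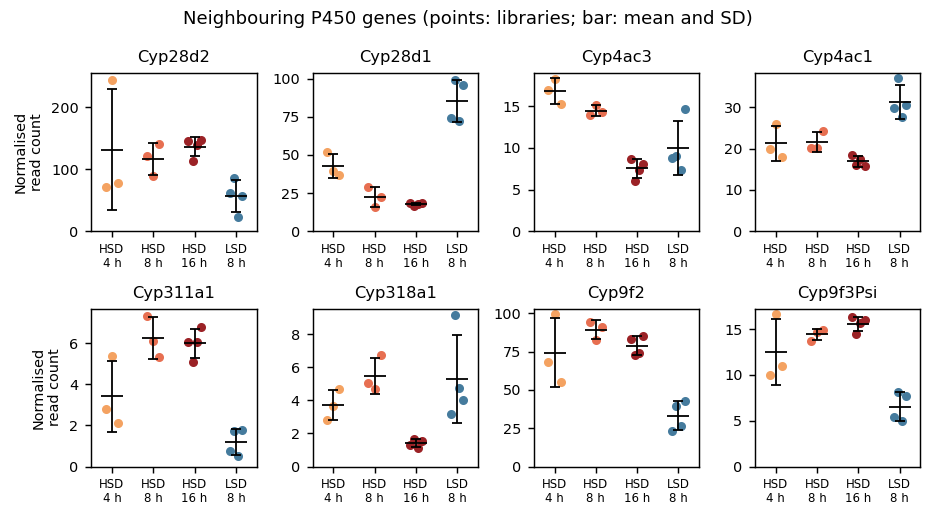
Normalised read counts of 4 pairs of neighbouring P450 genes in each library (points) with the mean and SD of the group (bar), for HSD at 4, 8 and 16 h (n = 3, 3 and 4) and LSD at 8 h (n = 4). Cyp28d2 is above LSD at 8 and 16 h while Cyp28d1 is below it at all times, and Cyp9f2 and Cyp9f3Psi are both higher than LSD at each time.

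Single libraries mattered at 4 h. HSD 4 h replicate 3 held the highest value of its group in 39 of the 67 P450s and was at least 1.5 times the next library in 8. Cyp28d2 (244 against 72.0 and 78.0) and, chosen after its values were seen, Cyp6d2 (7.25 against 0.890 and 0.721) were the most extreme. Without that library 12 P450s were called higher and 5 lower at 4 h, in place of 20 and 6. The summed P450 level was 2184, 2549 and 2088 in HSD 4 h, 2386, 2228 and 2527 in HSD 8 h, 2148, 2117, 2133 and 2207 in HSD 16 h, and 1814, 2152, 2031 and 2045 in LSD.

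The summed level of midgut markers was above LSD at 8 and 16 h and overlapped LSD at 4 h. The sum of 13 genes, mostly trypsins and other gut proteases, was 3914, 5734 and 2813 in HSD 4 h, 7649, 6482 and 7198 in HSD 8 h, 6655, 6662, 6526 and 7849 in HSD 16 h, and 3250, 4684, 2567 and 4125 in LSD. At 8 h 10 of the 13 rose and the amylases Amy-p and Amy-d fell, at 16 h 8 rose and 2 fell, and at 4 h 2 rose. Of all genes, 17.5%, 19.4% and 12.8% were called higher at 8, 16 and 4 h, and 16.9%, 20.4% and 11.4% lower. HSD 4 h replicate 3 and, within LSD, replicate 2 had the highest sums of their groups, and LSD replicate 3, which held the lowest value of its group in 33 P450s, had the lowest. In HSD 8 h, replicate 2 had the highest sum, but replicate 4 was highest in more P450s (29 against 19). Replicate 3 of HSD 8 h had the lowest sum and was lowest in 31. In HSD 16 h, replicate 3 had the lowest sum but was highest in 22 P450s, and replicate 2 was lowest in 30. The part of gut content in the P450 differences was not tested.

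Of the 8 Malpighian tubule markers 3 rose and 1, Uro, fell at 8 h, with sums of 272 to 279 against 178 to 283 in LSD; at 4 h the counts were 3 and 1 and at 16 h 3 and 2. Of 6 oenocyte markers 1 (Desat1, which is used in many tissues) rose and 1 fell at 8 h, 1 rose at 4 h and 2 rose at 16 h. Their sum, of which Desat1 was the largest part, was 1927 to 2086 in HSD 8 h against 674 to 732 in LSD. Only 3 of 8 fat body markers were measured, and 1, Lsp1gamma at 0.819 to 2.33 in HSD 16 h against 0.156 to 0.485 in LSD, was called in a comparison with LSD, a call lost without the 3 TwdlJ-high libraries (0.111).

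Cyp4c3 and Cyp304a1 spread widely within groups. Cyp4c3, which is outside the rule for named genes and was picked after its values were seen, was at 18.6, 16.1 and 30.9 in HSD 4 h, 57.8, 23.3 and 95.8 in HSD 8 h, 17.9, 80.8, 42.5 and 25.3 in HSD 16 h, and 15.0, 76.3, 111 and 15.6 in LSD. It was called in no comparison, but was called higher at 8 h without the 3 TwdlJ-high libraries (log2 1.69, adjusted p = 0.0416). That call cannot be read as a rise on sugar, since the libraries left out held the highest LSD values of Cyp4c3 (76.3 and 111). All HSD 8 h libraries, which also had TwdlJ above 10, stayed in. The cuticle gene TwdlJ was at 0.890, 0.414 and 0 in HSD 4 h, 35.9, 15.8 and 42.4 in HSD 8 h, 0, 12.5, 0 and 0.147 in HSD 16 h, and 0.938, 17.4, 33.6 and 0.727 in LSD, so the LSD and 16 h libraries with TwdlJ above 10 also had the highest Cyp4c3 of their group. Cyp304a1 was at 20.4, 31.6, 6.46 and 17.99 in HSD 16 h against 28.05, 43.5, 139 and 53.3 in LSD; its call (log2 -1.69, adjusted p = 0.0277) was lost without HSD 16 h replicate 3 (0.0805) or replicate 4 (0.0516), or without LSD replicate 3 (0.0812) or the 3 TwdlJ-high libraries (0.0875).

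**Figure D5:**
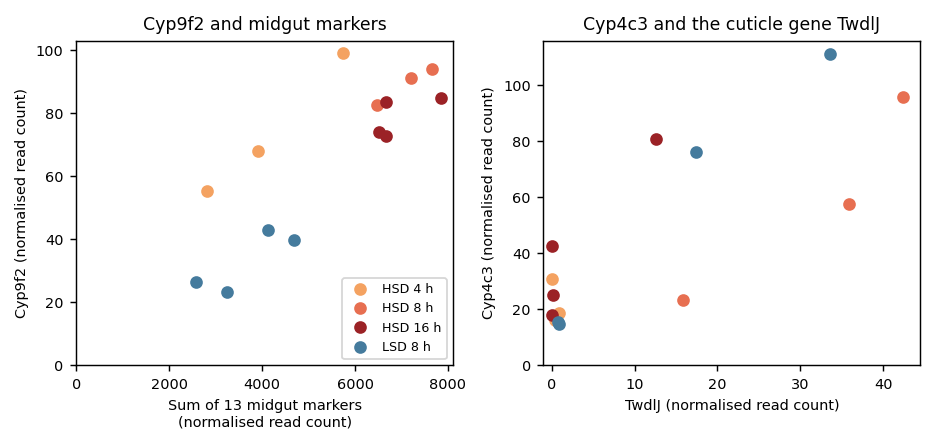
Left, normalised read count of Cyp9f2 against the sum of 13 midgut markers; right, Cyp4c3 against the cuticle gene TwdlJ; each point is 1 of 14 libraries, coloured by diet and time. Cyp9f2 is at 55.2 to 99.2 in the HSD libraries and at 23.4 to 42.9 in LSD, and Cyp4c3 is at 76.3 and 111 in the LSD libraries with high TwdlJ.

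Genes around the P450s were read from lists chosen by pathway, against 34.4%, 24.2% and 39.7% of all genes called in either direction against LSD at 8, 4 and 16 h. Of 6 measured genes of ecdysone synthesis 1 rose at 8 h, 2 fell at 4 h (spok, a call lost without HSD 4 h replicate 4 at 0.0645, and phm) and 3 rose at 16 h. The P450 shd makes the active hormone from ecdysone, and was at 5.12, 6.543 and 3.48 in HSD 4 h, 8.72, 10.8 and 6.52 in HSD 8 h, 12.8, 12.8, 16.6 and 14.4 in HSD 16 h, and 2.46, 1.51, 1.801 and 5.33 in LSD. It rose at 8 h (log2 1.59, adjusted p = 0.00207) and 16 h (2.28, adjusted p = 7.88e-05), where Cyp18a1 fell.

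Of 6 genes listed as electron donors, 1 rose and 1 fell at 8 h. At 4 h 1 fell (Cyt-b5-r), and at 16 h 2 fell (Cyt-b5-r and Fdx2). No source used here shows that Cyt-b5-r gives electrons to P450s, so its changes are not read as changes in electron supply. Cpr, the reductase that serves the P450s of the endoplasmic reticulum, was at 286, 334 and 339.9 in HSD 8 h against 222, 306.3, 194 and 260.3 in LSD (log2 0.40, adjusted p = 0.0345). That call was lost in 7 alternatives (0.06 to 0.113), among them leaving out HSD 8 h replicate 3 or 4 or LSD replicate 1 or 3. Cyt-b5-r was at 203, 235 and 185 in HSD 4 h, 638, 510.5 and 694 in HSD 8 h, 331, 341, 344 and 348 in HSD 16 h, and 603, 784, 600.1 and 669.8 in LSD. It was low at 4 h (log2 -1.67, adjusted p = 1.57e-06) and 16 h (-0.95) and within the LSD range at 8 h but for replicate 3. Of 9 genes of heme synthesis and breakdown 2 rose at 8 h, 3 rose at 4 h, and 3 rose and 1 fell at 16 h; Alas, the first enzyme of heme synthesis, was higher at each time by 0.26 to 0.39 on the log2 scale, with a call at 4 h (adjusted p = 0.0405) that was lost in 13 alternatives, among them without HSD 4 h replicate 1 (0.178).

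Of 8 regulators linked to foreign compounds, 2 rose at 8 h, 1 rose and 1 fell at 4 h, and 1 rose and 1 fell at 16 h. Hr96, a nuclear receptor of the response to foreign compounds and to fat, was at 34.9, 33.6 and 34.8 in HSD 8 h and 28.7, 29.7, 33.2 and 30.1 in HSD 16 h against 19.1, 27.9, 19.6 and 24.7 in LSD (log2 0.60 and 0.42; adjusted p = 0.00226 and 0.0101). The transcription factor cnc was at 263, 249 and 248 in HSD 8 h against 185, 212, 167 and 219 in LSD (log2 0.38, adjusted p = 0.00501), and its inhibitor Keap1 was called lower at 4 h (log2 -0.27, lost in 8 alternatives, among them without each HSD 4 h library) and 16 h (log2 -0.35).

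The cyclophilin Cyp1, which met the rule by its letters, was at 757, 773 and 789.7 in HSD 8 h against 887, 871, 911 and 817 in LSD (log2 -0.17, adjusted p = 0.0188, a call lost in 5 alternatives). At 4 and 16 h it was not called against LSD.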

How the data were processed

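The labels put whole larvae into 4 groups by diet and time, and 14 of 16 libraries have a column in the authors' table. Stranded libraries were made after removal of ribosomal RNA and read from a single end (75 bp, 2 technical sequencing runs per sample), per the labels' protocols. The submitters' processing notes name Trimmomatic, TopHat2 2.1.0, HTSeq and limma (genome build, annotation, strand setting and gene filter: not given in the sources used here). Each deposited signal value is reads divided by an effective library size (column sums 910679 to 1063358), and 100% of values came out as whole reads within 0.01 read. The authors' log2 fold changes, their scores (t and F statistics) and their p-values, deposited in the same table, were not used.

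Values were tested with limma 3.58.1 in R 4.3.3 as log2(value + 0.5), in the 10114 genes that reached 1 in 3 or more libraries (14 left out). Fold changes are on that scale and understate low genes. All 4 groups entered 1 fit with a variance trend (10 residual degrees of freedom). P-values are two-sided and adjusted by Benjamini-Hochberg over all genes of each of 6 comparisons, with a threshold of 0.05. A count of 3 reads equals 0.117 to 0.182, which reflects counting error alone. The design had been written for CPM; the columns do not share a total, so they were treated as a signal, with the same test. The fits were tested on simulated data.

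The members, the gene lists, the 3 libraries left out together (those of LSD and HSD 16 h with the cuticle gene TwdlJ above 10) and the alternatives were chosen with earlier results of these data known. Named genes were, of called members with no overlap of groups and a higher mean of at least 5, up to 10 largest rises and falls per comparison with LSD and 5 within HSD, a fixed list of known genes, and their neighbours within 10 kb. Alternatives were other pseudocounts, filters, scalings, edgeR 4.0.16 on the recovered reads, a replicate block, array weights, only the groups compared, no trend, a threshold of 0.01, and leaving out libraries. All 68 members were found in the reference, 67 by gene identifier and Cyp6a21 by symbol.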

Additional observations from a re-analysis of the deposited data

Results flagged for a closer look

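Within groups of 4 libraries, 106 gene and group combinations of the named genes were examined for a library standing apart, and 3 passed the limit, Dixon's critical value for a gap relative to the range; chance flags about 1 in 20 such groups. Cyp4e1 was at 2.71 in LSD replicate 2, against 6.20 to 6.72 in the other LSD libraries. Without that library Cyp4e1 was called lower at 8 h (log2 -0.66, adjusted p = 0.0286) and 16 h (-0.74, adjusted p = 0.0109), where it had no call with all libraries. These calls cannot be read as a fall on sugar, since the library left out was picked for its low LSD value. Exons of Cyp4e1 overlap the maltase gene Mal-A1 on the other strand. Cyp6a18 was at 19.7 in the same library, against 11.99 to 12.5 in the other LSD libraries; without that library its fall at 4 h kept its call. Cyp4p3 was at 50.5 in HSD 16 h replicate 3, against 38.3 to 39.7 in the other 16 h libraries.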

How the results depend on the processing

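The 26 to 27 alternatives were read for the number of P450s called in each comparison and for each named gene called in it. None of these values reversed its direction. Of the called P450s, 25 of 41 at 8 h, 12 of 26 at 4 h and 30 of 42 at 16 h against LSD were called under every alternative that kept the threshold of 0.05, and 0 of 4, 9 of 17 and 18 of 31 at 8 against 4, 16 against 8 and 16 against 4 h within HSD.

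A threshold of 0.01 left 27 at 8 h, 15 at 4 h, 0 at 8 against 4 h, 8 at 16 against 8 h and 18 at 16 against 4 h. With only the groups compared the count at 4 h was 15. At 8 against 4 h, array weights gave 14, leaving out the 3 TwdlJ-high libraries (LSD replicates 2 and 3, HSD 16 h replicate 2) 7, and at an unadjusted p under 0.05 there were 21. The share of all genes called was taken only for the main fit at an adjusted p of 0.05. The counts under the alternatives thus have no background beside them. Leaving out each library in turn gave 31 to 42 at 8 h, 17 to 30 at 4 h and 36 to 44 at 16 h against LSD. Within HSD it gave 1 to 10 at 8 against 4 h, 11 to 21 at 16 against 8 h and 24 to 36 at 16 against 4 h. At 8 against 4 h the count was 1 when replicate 1 or 4 of HSD 4 h was dropped, and likewise replicate 3 or 4 of HSD 8 h. It was 2 when HSD 8 h lost replicate 2, or HSD 16 h lost replicate 1 or replicate 4. It was 10 without HSD 4 h replicate 3 and 7 without LSD replicate 2. Where a group is left with 2 libraries, its spread is taken from all groups.

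Replicate numbers did not pair the libraries: same-numbered libraries of different groups had residual correlations of -0.46 to 0.35 (median -0.0095, 18 pairs), against -0.503 to 0.557 for other pairs. A replicate block gave 32, 23 and 37 calls at 8, 4 and 16 h against LSD, and 1, 13 and 24 for 8 against 4, 16 against 8 and 16 against 4 h. On recovered reads, edgeR called 41, 28 and 39 against LSD and 4, 17 and 30 within HSD. Library depth limits members near the floor most, such as Cyp313a3, whose lowest library held 1 read.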
